A study of Bos taurus with 34 samples.

Results

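Genes of bile acid transport and conjugation were examined in the liver of cattle with and without SLICK1, an allele of the prolactin receptor gene PRLR. The list held 10 genes chosen by symbol: SLC10A1 and SLCO1B3 for uptake, ABCB11, ABCB4 and ABCC2 for export into bile, ABCC3, SLC51A and SLC51B for export to blood, and BAAT and SLC27A5 for conjugation. Of these, 9 were found among the 14161 genes of the authors' comparison of slick with free animals, and BAAT was not analysed here. The identifiers of all 9 were also present in the gene annotation of both deposited count tables.

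The comparison concerned daughters of Blanco and Lone Ranger, bulls that carry the allele, labelled as Senepol cattle, whose liver RNA was made into stranded TruSeq mRNA libraries. SLICK daughters carried 1 copy of the allele (10 samples, 5 of each bull), and FREE daughters carried 0 copies (8 samples, 7 of Lone Ranger and 1 of Blanco). Genotype and sire therefore overlap in part, and no source used here says whether the authors' model held a term for sire. No allele, treatment or age beyond this is given in the labels. A second experiment sampled animals with 2 copies (S2, 11 samples) or 1 copy (S1, 5 samples). Its libraries, like those of the TruSeq count table, are named by animal numbers that match no sample label, so S2 against S1 and values of single animals are not analysed here.

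Bile acids circulate between liver and gut. Hepatocytes take them up from portal blood across the basolateral membrane and pump them across the canalicular membrane into bile. New or deconjugated bile acids are first activated to coenzyme A thioesters and then joined to taurine or glycine, which keeps them soluble. A further set of carriers in the basolateral membrane returns bile acids to the blood, a route known in humans and mice to become more prominent when bile flow is blocked. The bile acid receptor FXR, encoded by NR1H4, is known from humans and mice to induce ABCB11, SLC51A and SLC51B.

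In the authors' deposited table, none of the 9 transporter and conjugation genes passed an adjusted p of 0.05, beside 71 of the 14161 genes (0.501%, or 0.0918% that rose and 0.410% that fell). SLC51A, a subunit of the basolateral exporter, came nearest, at 3.99-fold lower in SLICK than in FREE liver, and the authors' deposited table gives it an adjusted p of 0.0511. The uptake carrier SLC10A1 was next, 1.37-fold higher in SLICK with an adjusted p of 0.0893 there. These were the genes under an adjusted p of 0.10, beside 2.77% of all genes. The 3 genes of export into bile had log2 ratios of SLICK over FREE between 0.04 and 0.16 in the authors' deposited table. At an unadjusted p under 0.05, 3 of the 9 genes were found (SLC10A1, SLC27A5 and SLC51A), beside 16.0% of all genes. For each of the 9 genes an approximate 95% interval of the log2 ratio was computed from the deposited fold change and its F statistic. Its width rests on the variation between animals in the authors' fit. It is an interval for the ratio of the groups, not a range of single animals, and whether it allows for sire is unknown.

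The levels of the genes, as averages over all libraries of the authors' fit, were set on a scale of CPM (read counts relative to library size) per kilobase of gene length so that genes could be compared. Uptake carriers stood highest. SLC10A1 averaged 245 CPM per kilobase and SLCO1B3 averaged 226, both above the 97th percentile of all genes on this scale. SLC27A5 followed with 158 CPM per kilobase. Among the canalicular pumps ABCB4 averaged 70.8, ABCC2 28.7 and ABCB11 26.7 CPM per kilobase. The basolateral exporters were spread widely, from 53.0 CPM per kilobase for SLC51B to 2.88 for ABCC3 and 0.484 for SLC51A. The steps between SLC10A1 and SLCO1B3 (1.09-fold) and between ABCC2 and ABCB11 (1.07-fold) were the smallest in this order. The spread of a level between animals is unknown here, so the order of neighbours could not be tested.

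**Figure D1:**
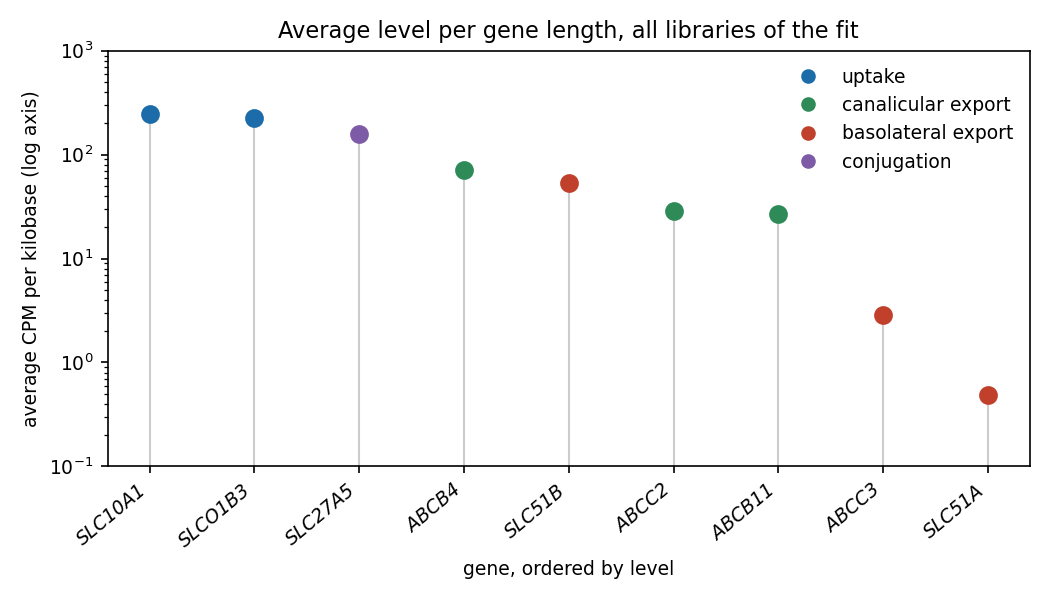
Average level of each gene in CPM per kilobase of gene length (log axis) over all libraries of the authors' fit, ordered by level and coloured by role. The uptake carriers lie at 245 and 226 CPM per kilobase, and SLC51A lies lowest at 0.484.

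Both uptake carriers were higher in SLICK liver by point estimate, and neither passed the adjusted threshold. SLC10A1 encodes NTCP, the sodium-dependent carrier of conjugated bile acids. It occupies 81503834 to 81526924 on the minus strand of chromosome 10 (all positions are in ARS-UCD1.2) (ENSBTAG00000001881), with 5 exons. Its log2 ratio in the authors' deposited table was 0.45 (approximate standard error 0.12, interval 0.19 to 0.71), with an unadjusted p of 0.00171. Of the 14161 genes, 484 had a higher log2 ratio. SLCO1B3 encodes a sodium-independent organic anion carrier that in humans takes up bile acids, bilirubin and drugs, and lies on chromosome 5 from 88901347 to 88970366 on the minus strand. Its log2 ratio was 0.40 in the authors' deposited table, close to that of SLC10A1. Its standard error was larger, at 0.20, so that the interval of -0.03 to 0.82 included 0 (unadjusted p = 0.0649, adjusted p = 0.362). Changes of SLCO1B3 from slightly lower to 1.77-fold higher in SLICK are thus within the error.

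The canalicular exporters differed little by point estimate, and all 3 intervals included 0. ABCB11 encodes the bile salt export pump (chromosome 2, 27112408 to 27210473, plus strand). The authors' deposited table gave ABCB11 a log2 ratio of 0.16 (interval -0.20 to 0.53) and an adjusted p of 0.723. ABCB4, which moves phosphatidylcholine into bile and so protects the bile ducts from free bile salts, lies on chromosome 4 from 33006669 to 33080056. Its log2 ratio of 0.07 in the authors' deposited table had the narrowest interval of the 9 genes, -0.10 to 0.24 (adjusted p = 0.764). A change of ABCB4 above 1.18-fold in SLICK lies outside that interval. ABCC2, a pump of bilirubin glucuronides and other organic anions (chromosome 26, 20744151 to 20815377), had a log2 ratio of 0.04 in the authors' deposited table (interval -0.19 to 0.26, adjusted p = 0.921). ABCB11 was the least precisely measured of the canalicular genes, with changes from 1.44-fold higher to a fold of 0.873 in SLICK within its interval.

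The basolateral exporters were the one role in which every gene had a negative log2 ratio, but only SLC51A was far from 0. SLC51A encodes the alpha subunit of the organic solute transporter, a carrier that needs both its alpha and beta subunits to reach the membrane. The gene lies on chromosome 1 from 70809680 to 70827658 on the plus strand (ENSBTAG00000012347), with 9 exons. In the authors' deposited table its log2 ratio was -2.00 (approximate standard error 0.44, interval -2.93 to -1.07), with an unadjusted p of 2.55e-04. Only 45 of the 14161 genes had a lower log2 ratio. SLC51A averaged 0.699 CPM over all libraries in the authors' deposited table, near the low end of the measured genes. Its standard error exceeded that of 96.4% of all genes, and the median over the 2030 genes that averaged under 1 CPM (0 log2 CPM) was 0.31.

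The adjusted p of SLC51A depended on the set of genes it was adjusted over. With the Benjamini-Hochberg adjustment recomputed over the 14161 genes held here, the adjusted p was 0.0473, against 0.0511 as deposited. Its unadjusted p ranked 74th in the table, just outside the 71 genes called by the authors' adjusted values. The difference therefore sits at the threshold and is given as not passing.

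SLC51B, the beta subunit, had a smaller difference than SLC51A by point estimate. It lies on chromosome 10 from 11983354 to 11993942 on the plus strand, with 4 exons. The authors' deposited table listed a log2 ratio of -0.20 for SLC51B (interval -0.52 to 0.13, adjusted p = 0.597). The intervals of SLC51A and SLC51B did not overlap, although the difference between these genes, measured in the same animals, was not tested. Per kilobase, SLC51B stood 109-fold above SLC51A in average level. ABCC3, a basolateral pump of glucuronides and bile acids on chromosome 19 from 36047549 to 36095574, had a log2 ratio of -0.09 in the authors' deposited table (interval -0.38 to 0.20, adjusted p = 0.825).

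Exons of both transporter subunits overlap a gene on the other strand. SLC51A shares 147 exon bases with PCYT1A, an enzyme of phosphatidylcholine synthesis, and SLC51B shares 46 with RASL12. Whether the TruSeq libraries were counted by strand is not stated, so reads of such partners cannot be told apart with certainty. PCYT1A averaged 7.48 CPM, against 0.699 CPM for SLC51A. The log2 ratio of PCYT1A was 0.10 in the authors' deposited table (interval -0.13 to 0.33, adjusted p = 0.746). What share of the SLC51A counts came from PCYT1A was not tested. RASL12 averaged 0.579 CPM, against 36.1 CPM for SLC51B. Its log2 ratio was -0.58 in the authors' deposited table (adjusted p = 0.118).

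Conjugation was represented by SLC27A5 alone. This gene encodes the bile acid coenzyme A ligase that activates bile acids for transfer to taurine or glycine (chromosome 18, 65732865 to 65741718, minus strand, 10 exons). SLC27A5 had a log2 ratio of 0.25 in the authors' deposited table (interval 0.02 to 0.49). Its unadjusted p was 0.0363 and its adjusted p 0.280, so its 1.19-fold higher level in SLICK did not pass.

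**Figure D2:**
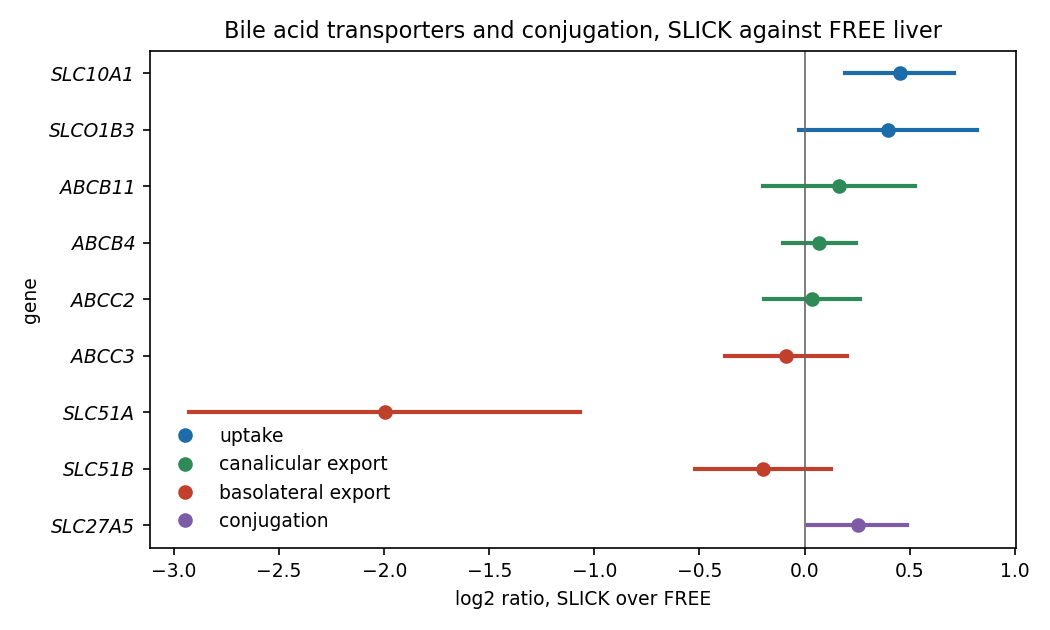
Log2 ratio of each gene, SLICK over FREE (points), with its approximate 95% interval (lines), grouped by role from uptake at the top to conjugation at the bottom. The intervals of SLC10A1, SLC51A and SLC27A5 exclude 0, those of the other 6 genes include it, and SLC51A at -2.00 lies apart from the rest.

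Set side by side, uptake, canalicular export and basolateral export had median log2 ratios of 0.43 (2 genes), 0.07 (3 genes) and -0.20 (3 genes) in the authors' deposited table, against -0.01 for all genes. Each role holds too few genes for the median to say more than its members do. The uptake genes lay between 0.40 and 0.45, the canalicular genes between 0.04 and 0.16 and the basolateral genes between -2.00 and -0.09. Of the 9 genes, 6 had a positive log2 ratio in the authors' deposited table, beside 48.2% of all genes. The roles could not be tested against each other, since that needs values of single animals.

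**Figure D3:**
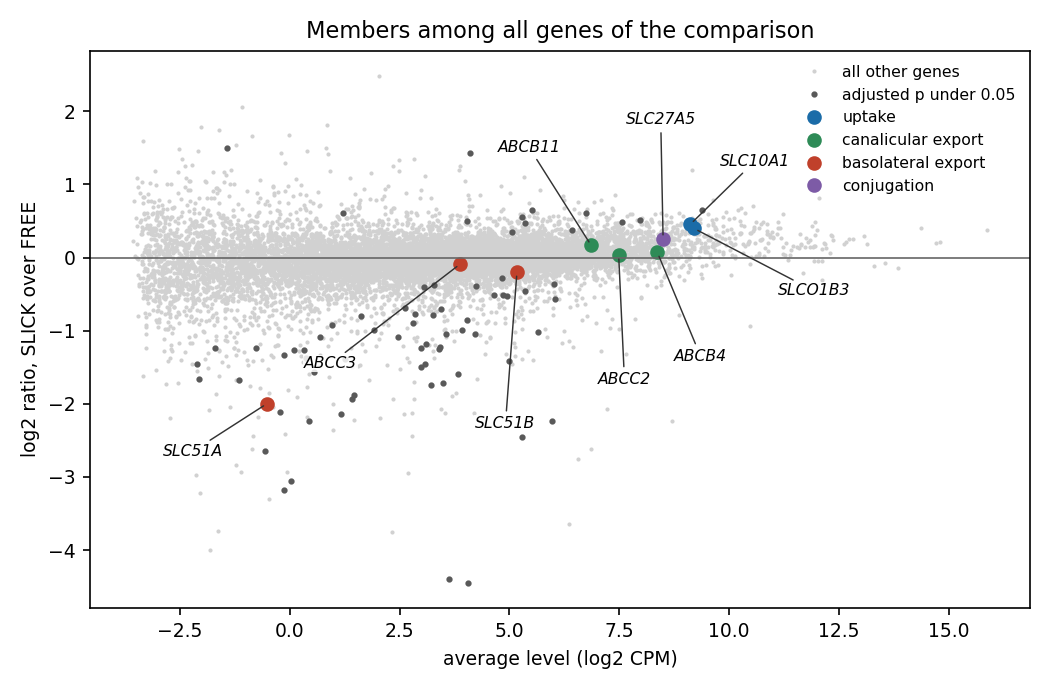
Log2 ratio (SLICK over FREE) against average level in log2 CPM for all 14161 genes, with the 71 genes past an adjusted p of 0.05 in dark grey and the bile acid genes in colour. SLC51A, at -0.52 log2 CPM, lies among low genes, where the spread of fold changes is wide, and the uptake carriers lie above 9 log2 CPM.

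Genes listed for the synthesis of bile acids from cholesterol were mostly higher in SLICK by point estimate. Of the 16 listed, nearly all of them enzymes, 13 were measured, 0 passed over all genes, and 12 had a positive log2 ratio. At an unadjusted p under 0.05, 7 were higher and 0 lower, beside 7.22% higher and 8.79% lower among all genes. Their median log2 ratio in the authors' deposited table was 0.37. The peroxisomal side chain enzyme HSD17B4 had a log2 ratio of 0.49, the sterol 12-alpha-hydroxylase CYP8B1, which sets the share of cholic acid, of 0.42, and the steroid reductase AKR1D1 of 0.55 in the authors' deposited table. The adjusted p-values of these enzymes lay between 0.135 and 0.156. CYP7A1, the rate-limiting enzyme of the classical pathway, was singled out after its values were seen. It had a log2 ratio of 0.37 in the authors' deposited table, with a wide interval of -0.59 to 1.33 (adjusted p = 0.773).

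Among 13 measured genes of bile acid sensing and FGF19 signalling, 1 fell and 0 rose at an adjusted p under 0.05. Of all genes, 0.410% fell and 0.0918% rose. The gene of this list that fell was VDR, the vitamin D receptor, which in humans also binds lithocholic acid. The authors' deposited table gave VDR a log2 ratio of -1.33 (adjusted p = 0.0210), at an average of -0.14 log2 CPM. The xenobiotic receptor NR1I3 had a log2 ratio of 0.37 and RXRA, the partner of many nuclear receptors, of 0.26 in the authors' deposited table, and neither passed (adjusted p of 0.104 and 0.265). NR1H4 itself was nearly level at 0.02 in the authors' deposited table (interval -0.20 to 0.23). Its target NR0B2, a repressor of bile acid synthesis, had a log2 ratio of -0.37 there (interval -0.88 to 0.15). NR1H4 and NR0B2 were also singled out after their values were seen.

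Of the other hepatic carriers none passed over all genes. Among the 17 measured, 5 were higher and 0 lower at an unadjusted p under 0.05, beside 7.22% higher and 8.79% lower among all genes. ABCC6, a basolateral transporter needed for ATP release, had a log2 ratio of 0.49, the organic anion carrier SLCO2B1 of 0.34 and SLC22A9 of 0.48 in the authors' deposited table. The adjusted p-values of these carriers lay between 0.0876 and 0.113. Genes that deliver transporters to the canalicular membrane or anchor them there were centred on 0, with a median of 0.00 over 12 genes. Of these, 3 were lower at an unadjusted p under 0.05, beside 8.79% of all genes, and 0 passed over all genes. Among them, the log2 ratio was -0.21 for RAB8A, a small GTPase of apical transport, and -0.21 for the membrane linker EZR in the authors' deposited table.

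**Figure D4:**
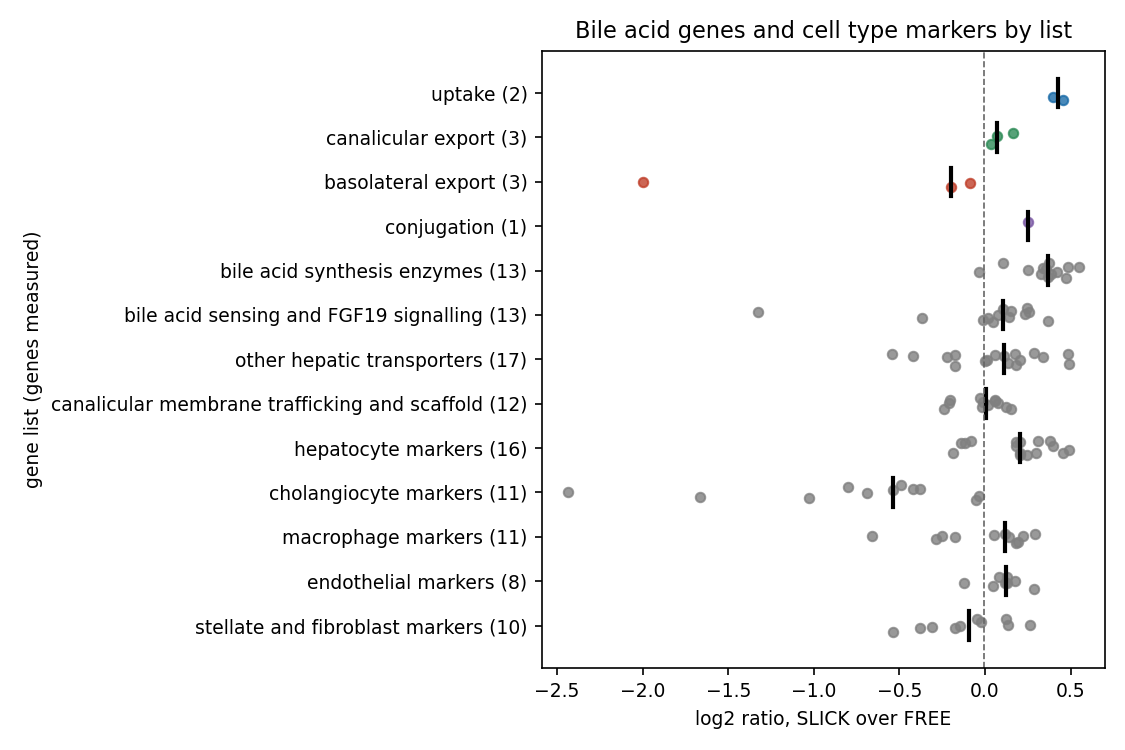
Log2 ratio (SLICK over FREE) of every measured gene in each list (points), with the list median (black bar) and the median of all genes (dashed line). The cholangiocyte markers all lie below 0, and 12 of the 13 measured genes of bile acid synthesis lie above it.

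The libraries were checked against markers of liver cell types. The hepatocyte product ALB averaged 15.87 log2 CPM, the highest level of all genes in the authors' deposited table. Over 16 hepatocyte markers the median log2 ratio was 0.20, with 12 higher and 4 lower by point estimate. At an unadjusted p under 0.05, 5 were higher and 0 lower, beside 7.22% and 8.79% of all genes, and 0 passed over all genes. CPS1 had a log2 ratio of 0.49, APOC3 of 0.46 and TF of 0.40 in the authors' deposited table. The 4 lower markers were APOA1 (-0.19), FGB (-0.14), FGG (-0.12) and FGA (-0.08) by the authors' deposited table. ALB and these 4 were named after their values were seen. Cholangiocytes form the bile duct lining, where human SLC51A is also expressed. All 11 measured genes of the cholangiocyte list were lower by point estimate, beside 51.8% of all genes. They ranged from -2.44 to -0.03 with a median of -0.54. Of the 11, 7 had an unadjusted p under 0.05, beside 8.79% of all genes that were lower at that cutoff, and 0 passed over all genes. SPP1 had a log2 ratio of -2.44, CLDN4 of -1.67 and KRT7 of -1.03 in the authors' deposited table, the lowest of the list. Of the 11 genes, SPP1 alone lay below SLC51A at -2.00. The list was not uniform, as KRT19 (-0.03) and ANXA4 (-0.05), named after their values were seen, were nearly level. Average levels of the 11 genes ran from -0.47 to 8.14 log2 CPM in the authors' deposited table, with ANXA4 the highest. The part of hepatocyte or bile duct content in the values of the transporters was not tested, and in bulk liver fewer cells of a type and less RNA per cell cannot be told apart.

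Medians of the markers of other cell types lay nearer to 0. They were 0.12 for 11 macrophage markers, 0.12 for 8 endothelial markers and -0.10 for 10 stellate cell and fibroblast markers. In each list 0 were called, beside 0.501% of all genes. At an unadjusted p under 0.05, 1 macrophage and 2 stellate list markers were lower, beside 8.79% of all genes. At that cutoff 1 endothelial marker was higher, beside 7.22% of all genes. The smallest p-values belonged to LUM in the stellate list (log2 ratio -0.54), CD68 in the macrophage list (-0.28) and STAB1 in the endothelial list (0.29), by the authors' deposited table. COL1A2 (-0.38), COL1A1 (-0.31), CD5L (0.29), VSIG4 (-0.25), STAB2 (0.18) and KDR (0.13) followed in these lists in the authors' deposited table. PRLR, the gene that carries the allele, had a log2 ratio of -0.05 in the authors' deposited table (adjusted p = 0.936), which does not check the genotype labels because the allele alters the protein.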

How the data were processed

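The labels' protocols name an RNeasy kit and either TruSeq (18 samples) or SMARTer (16 samples) libraries. HISAT2 2.1.0, featureCounts, Subread, edgeR and, as build, ARS-UCD1.2 appear in the submitters' processing notes without their roles. The authors deposited, per the file headers, a slick against free table that holds for each gene a log2 fold change (here called log2 ratio), the F score, the p-value, its adjusted value and the mean level in log2 CPM. The direction of the deposited log2 ratio was read from the table's name and could not be checked against single libraries. Gene lengths and positions came from another set of deposited columns, the annotation of the count tables (Ensembl release 100, per the file headers).

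The 70 columns of per-library values in 4 tables are named by animals and match no sample label, so none was used and depth per sample is not given. Of the 18 animals named in the comparison table, 17 are also in the TruSeq counts. The planned count fits, S2 against S1 among them, were replaced by the deposited statistics. Of 14246 rows, 85 repeated a gene, leaving 14161.

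The approximate standard error was the absolute log2 ratio divided by the square root of F, and the 95% interval used 18.7 denominator degrees of freedom, the value that F and p imply. In simulated ratios and F for 14000 genes, F was set to the square of ratio over error. The interval held the true value for 95.2% of genes. Because that relation was built in, the simulation checked the arithmetic alone. For the real fit that relation is approximate. The deposited ratio may be moderated towards 0 for low genes, which the interval does not cover. The members and gene lists were chosen with earlier results of these data known. Genes named beside the members were PRLR, the 3 with the smallest p of each list and any called, and exceptions are stated. A gene that this rule took is not reported here. HSD3B7, CYP46A1, CH25H, FGF19, ABCC4, SLC47A1, FABP6, PDZK1, PROM1 and FCN2 of these lists were not analysed here. NHERF1 was not found by that symbol, but the same gene was measured in its list as SLC9A3R1. Python 3.11.15 was used with scipy 1.17.1, pandas 2.3.3, numpy 2.4.6 and matplotlib 3.10.9.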

Additional observations from a re-analysis of the deposited data

How the results depend on the processing

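With the adjustment recomputed over the genes held here, 1 bile acid gene passed (SLC51A, adjusted p = 0.0473), against 0 with the deposited values, while 90 of all genes passed, against 71. At an adjusted p under 0.10, chosen for these genes after seeing the data, 2 passed (SLC51A and SLC10A1), while 392 of all genes did, against 71 at 0.05. With the adjustment recomputed over the 12131 genes of at least 0 log2 CPM, which leaves out SLC51A, 0 of the 8 remaining passed. Of those 12131 genes, 77 did. Subtracting the median of all genes shifts every ratio by the same 0.01, too little to change a sign among the 9 genes. Medians of the 12 lists with more than 1 measured gene moved by less than the standard deviation of their genes, and the ratio of SLC27A5, alone in its list, by less than its standard error. No paired analysis was possible because the library columns carry no replicate numbers. Count fits by other tools, filters on low counts, leaving out single animals and S2 against S1 were not run for the same reason, so whether 1 animal carries the SLC51A value was not tested. At 0.699 CPM, SLC51A has the lowest level and the largest standard error of the 9 genes.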
